A study of Mus musculus with 10 samples.

Results

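The matrix metalloproteinases (MMPs), the ADAM and ADAMTS proteases and the tissue inhibitors of metalloproteinases (TIMPs) were examined as 1 group of genes. Members were the genes of the deposited table whose symbol starts with Mmp, Timp, Adam or Adamts followed by a number, which gave 64 of 29868 genes. RNA sequencing had been run on 10 mouse libraries labelled as heart, 5 of the MI group and 5 of the MI+Nav group. All carry the label WT, and per the methods of the study the animals were male C57BL/6 mice, 8 weeks old at randomisation, in which myocardial infarction was produced by ligation of a coronary artery. The MI group received saline, and the MI+Nav group received navarixin, an antagonist of the chemokine receptor CXCR2, at 1 mg/kg by mouth, each once daily for 4 weeks after the operation. Myocardial infarction is thus common to both groups, and uninfarcted animals were not analysed here. The labels do not say that the libraries came from separate animals, so p-values measure only the spread between these libraries, which may be technical. The batch named in the labels equals the group, so batch and treatment cannot be told apart.

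MMPs cut collagens, laminins and other matrix proteins, and most are made as inactive precursors that must be cleaved or otherwise opened before they act. ADAMs sit in the plasma membrane and release the outer parts of other membrane proteins, among them cytokines, growth factors and Notch, whereas ADAMTS proteases are secreted and trim proteoglycans, procollagens and microfibrils. TIMPs block these enzymes by occupying the active site, and in the infarcted heart the balance between the proteases and TIMPs is known for its part in scar formation and chamber dilatation.

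The label of the tissue was checked first. Of 14 cardiomyocyte marker genes in the table, all 14 averaged under 0.5 FPKM (fragments relative to transcript length and library depth), and their summed level was 0.893 to 2.00 FPKM per library. The median proximal tubule marker averaged 111 FPKM over the 10 libraries, and all 12 markers of that kidney cell type were detected. All 5 markers of the loop of Henle and all 8 of the distal tubule and collecting duct were detected as well. The defining genes of heart muscle were thus near 0 in libraries labelled as heart, and the marker profile was that of kidney. The levels below are those of the RNA in these libraries and cannot be read as levels of infarcted heart muscle. How this profile came under the label was not tested. The libraries held an estimated 16790000 to 20650000 fragments, and the share of mitochondrial genes in the FPKM of a library was 24.4 to 45.4%.

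The catalytic site that unites the proteases among these genes was read from the coding sequences of GENCODE M21 (GRCm38, the assembly also called mm10). It holds 3 histidines that grip the zinc ion, and its eighth residue is glycine in most members. Of the 64 members, 50 had this site in the longest coding transcript with glycine (45 members) or asparagine (5 members) at the eighth position. Adamts8 had the same site with serine there. The site was not found in the 4 TIMPs, which are inhibitors, nor in Adam11, Adam2, Adam4, Adam5, Adam6b, Adam7, Adam22, Adam23 and Adam32. Below, the site is shown 5′ to 3′ on the coding strand for 5 detected proteases on which the comparisons turn, with the codons of the 3 histidines and of the eighth residue in capitals.
Mmp11: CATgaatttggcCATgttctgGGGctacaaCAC
Adam15: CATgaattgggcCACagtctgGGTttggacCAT
Adam10: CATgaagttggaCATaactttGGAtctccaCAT
Adamts10: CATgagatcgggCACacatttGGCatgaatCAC
Adamts1: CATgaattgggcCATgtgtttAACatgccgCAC
The site lies within 1 coding exon in Mmp11 (chr10:75926931-75926963, minus strand) and in Adam15 (chr3:89344780-89344812, minus strand). It is split by an intron in Adam10 (chr9:70754296-70761585, plus strand), in Adamts10 (chr17:33538157-33538279, plus strand) and in Adamts1 (chr16:85799191-85799545, minus strand). Adamts1, Adamts9 and Adamts15, which cleave the large hyaluronan-binding proteoglycans, are the detected members with asparagine, and Adamts4 and Adamts20 are the members with asparagine that stayed below detection.

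Of the 64 members, 16 were detected, that is, they reached 0.5 FPKM in at least 5 of the 10 libraries. This is 25% of the members, against 44.9% of all genes in the table. The remaining 48 were below detection, and 29 of the 64 members averaged under 0.1 FPKM. Just inside the limit were Timp1, whose fifth-highest value was 0.510 FPKM, and Adamts6 at 0.553 FPKM, and just outside were Adamts5 at 0.466 FPKM and Adam1a at 0.427 FPKM. By role, the detected genes were 3 of 4 inhibitors, 4 of 9 ADAM sheddases, 3 of 7 hyalectan-cleaving ADAMTS and 2 of 8 other ADAMTS. They also included 1 of 6 membrane-type MMPs, 1 of 4 stromelysins and matrilysins, 1 of 6 other MMPs and 1 of 3 ADAMs without protease activity. No collagenase, no gelatinase and no ADAMTS procollagen N-propeptidase was detected, of 2, 2 and 3 in the table.

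**Figure D1:**
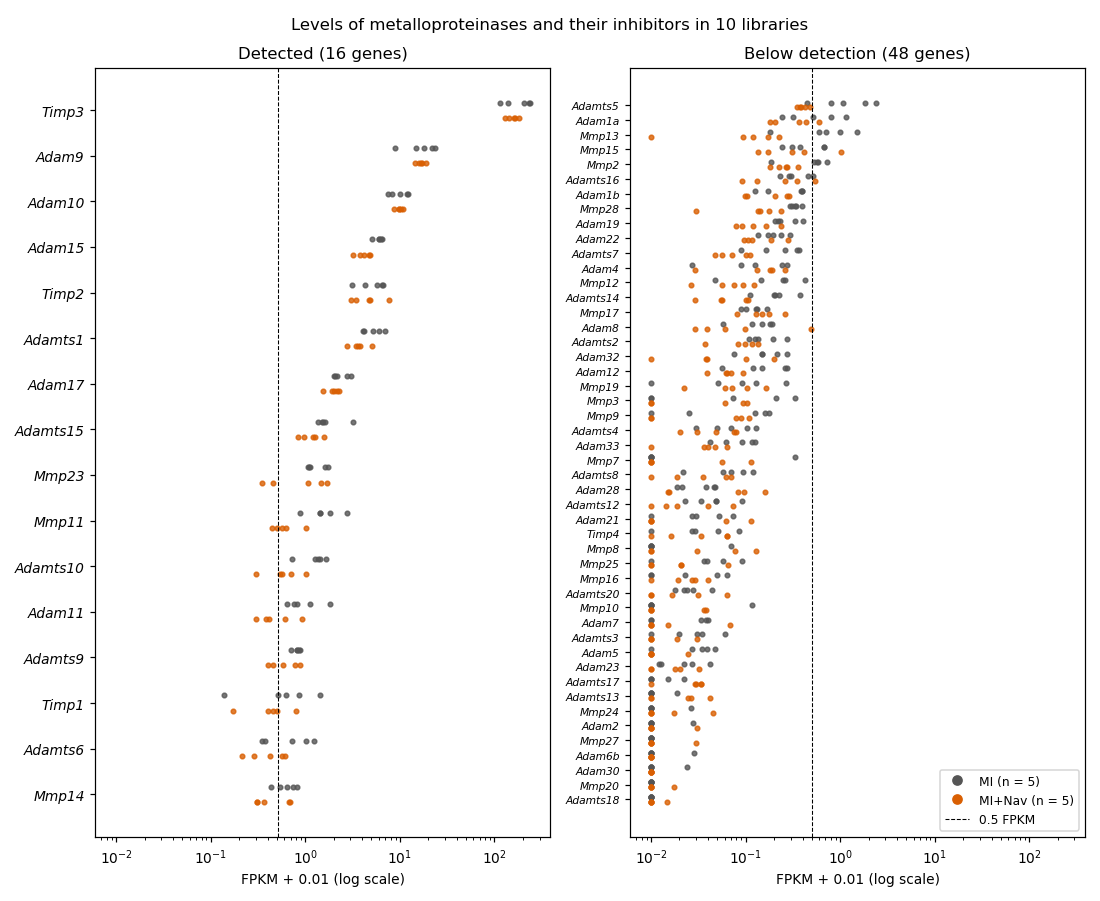
FPKM plus 0.01 on a log axis for the 64 members, 1 row per gene and 1 point per library, with MI in grey and MI+Nav in orange (5 libraries each) and the dashed line at 0.5 FPKM. Timp3 lies above 100 FPKM in every library, Adam9 and Adam10 follow, and 48 genes lie mostly left of the line.

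The inhibitor gene Timp3 dominated the group. Its protein binds to the extracellular matrix and blocks ADAM17 and several ADAMTS enzymes as well as MMPs. Timp3 (chr10:86300372-86349506, plus strand) measured 204, 235, 114, 139 and 230 FPKM in MI 1 to 5 and 162, 130, 164, 141 and 182 FPKM in MI+Nav 1 to 5. MI 3 and MI 4 were its lowest MI libraries, and the groups overlapped. The gene contributed 67.7 to 78.2% of the summed FPKM of all members in the MI libraries and 72.6 to 77.4% in the MI+Nav libraries. It differed by −0.20 on the log2 scale (SE 0.20), with a limma adjusted p of 0.718. The Timp3 difference was −0.35 without MI 3 (unadjusted limma p 0.0593), −0.47 without the 4 libraries of highest mitochondrial share (unadjusted limma p 0.00564, adjusted p 0.113) and −0.04 after median-of-ratios scaling. Timp3 overlaps Syn3 on the opposite strand, as Timp1 overlaps Syn1 and Timp4 overlaps Syn2, and no source used here says whether strand was used when the authors quantified genes.

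Timp2, which also takes part in the activation of pro-MMP2 at the cell surface, measured 6.66, 6.48, 4.25, 3.10 and 5.76 FPKM in MI 1 to 5 and 4.81, 3.41, 3.06, 4.75 and 7.70 FPKM in MI+Nav 1 to 5. The highest Timp2 value of all 10 libraries was in MI+Nav 5, and the groups overlapped (log2 fold change −0.15, SE 0.25, limma adjusted p 0.832). Timp2 shares its strand with the overlapping gene Cep295nl. Timp1, the inducible inhibitor of inflamed tissue, measured 0.843, 0.617, 1.41, 0.1297 and 0.510 FPKM in MI 1 to 5 and 0.397, 0.448, 0.164, 0.782 and 0.493 FPKM in MI+Nav 1 to 5. Both the highest and the lowest Timp1 value belonged to the MI group, and these levels correspond to an estimated 2.1 to 22.5 fragments per library. Its log2 fold change was −0.27 (SE 0.26, limma adjusted p 0.704). Timp4, the inhibitor most abundant in heart among adult tissues, was below detection, with 0.0191, 0.0751, 0.0169, 0.0410 and 0 FPKM in MI 1 to 5 and 0.0535, 0.0543, 0, 0.00627 and 0.0239 FPKM in MI+Nav 1 to 5. Its highest library rested on an estimated 8.3 fragments, and it was not tested.

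Navarixin-treated against control MI libraries were compared with limma over all 13412 detected genes. None of the 16 detected members passed an adjusted p under 0.05, where 49 of all tested genes did (0.365%). At an unadjusted p under 0.05, 6 of 16 members were lower in MI+Nav and 0 were higher, while 11.5% of all tested genes were lower at that limit (1544 genes) and 167 were higher. The 6 genes were Mmp11, Adam15, Adamts10, Adam11, Adamts1 and Adamts15. The log2 fold change was below 0 for 15 of 16 members, against 71.7% of all tested genes, and its median was −0.31 for the members and −0.12 for all tested genes. When the libraries were first scaled by median-of-ratios factors, the median moved to −0.24 for the members and 0.01 for all tested genes. With this scaling 4 of 16 members were lower at an unadjusted limma p under 0.05 and 0 were higher, against 7.88% of all tested genes lower (1057 genes) and 988 higher. This scaling centres all genes near 0 by construction, so the 2 medians are to be read beside each other. Mmp11, Adam15 and Adamts10 were lower at an unadjusted limma p under 0.05 under every alternative run, whereas Adam11, Adamts1 and Adamts15 were not. Without the 4 libraries of highest mitochondrial share (MI 3, MI 4, MI+Nav 2 and MI+Nav 3), 5 members were lower at that limit. Of these, 3 were among the 6, and the others were Timp3 and Adam9 (log2 fold changes −0.47 and −0.33). In that run 302 of all tested genes and 0 members passed the adjusted threshold, against 49 genes as reported. The share of all tested genes at the unadjusted limit was not counted there, so the 11.5% above is not its comparison. The treated libraries kept in that run were MI+Nav 1, 4 and 5, which also had the highest levels of the epithelial gene Krt18, given below. Mitochondrial share and this second trait therefore cannot be told apart among the treated libraries.

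**Figure D2:**
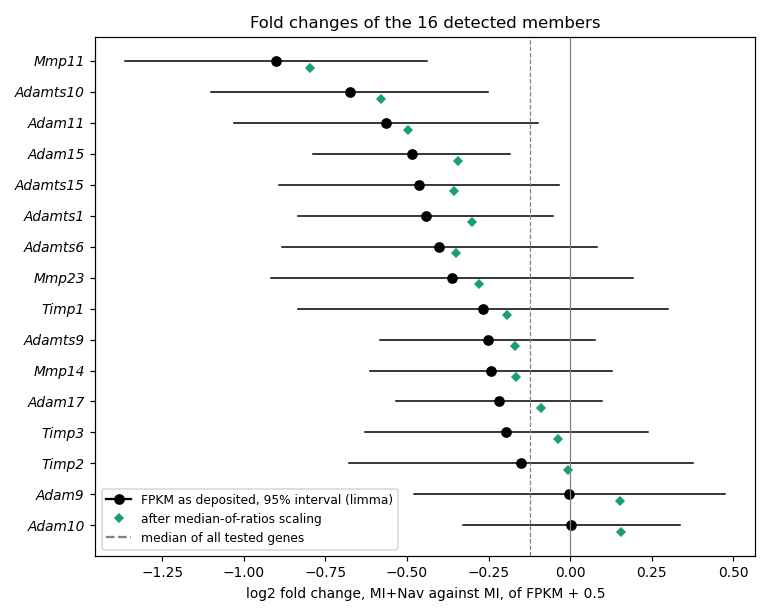
Log2 fold change of MI+Nav against MI on log2(FPKM + 0.5) for the 16 detected members, with black points and 95% intervals for the FPKM as deposited and green diamonds for the median-of-ratios scaling (5 libraries per group). Mmp11 lies furthest left at −0.90, Adam9 and Adam10 lie at 0, and the dashed line marks the median of all tested genes at −0.12.

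Among the MMPs, Mmp11 had the smallest p-value of the group. It encodes stromelysin 3, an MMP of stromal cells that is activated inside the cell by furin before it is secreted. Mmp11 (chr10:75923222-75936496, minus strand) measured 2.73, 1.80, 1.41, 0.878 and 1.42 FPKM in MI 1 to 5 and 0.611, 0.433, 0.498, 1.01 and 0.556 FPKM in MI+Nav 1 to 5. The lowest MI library, MI 4, lay below MI+Nav 4 only, so that 4 of 5 treated libraries were under every MI library. The group means were 1.65 ± 0.687 and 0.622 ± 0.228 FPKM (SD, n = 5 each). On the log2 scale the difference was −0.90 (SE 0.21, 95% interval −1.36 to −0.44), with an unadjusted limma p of 0.00098 and an adjusted p of 0.1005. Mmp11 passed the adjusted threshold when MI 4 was left out (log2 fold change −1.05, limma adjusted p 0.0139) and with array weights (−1.08, limma adjusted p 0.0145). The gene overlaps Chchd10 on the opposite strand.

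The other detected MMPs were low. Mmp14, the membrane-type MMP that activates pro-MMP2, measured 0.817, 0.737, 0.528, 0.422 and 0.630 FPKM in MI 1 to 5 and 0.677, 0.302, 0.300, 0.352 and 0.668 FPKM in MI+Nav 1 to 5. Its treated libraries fell into a pair near the MI values and 3 libraries below all of them (log2 fold change −0.24, SE 0.17, limma adjusted p 0.569). Mmp23, an MMP without the hemopexin domain of its relatives, measured 1.595, 1.06, 1.11, 1.09 and 1.72 FPKM in MI 1 to 5 and 1.06, 0.341, 0.447, 1.45 and 1.70 FPKM in MI+Nav 1 to 5. Only MI+Nav 2 and MI+Nav 3 were below the MI range (log2 fold change −0.36, SE 0.26, limma adjusted p 0.569), and without the 4 libraries of highest mitochondrial share, which include both, the difference was −0.04.

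The ADAM sheddases Adam9, Adam10 and Adam15 had the highest levels of the proteases among the members. Adam9, a broadly expressed sheddase, averaged 17.5 ± 5.86 FPKM in MI and 16.7 ± 1.70 FPKM in MI+Nav (SD, n = 5 each). Its libraries measured 21.9, 23.7, 8.95, 14.9 and 18.2 FPKM in MI 1 to 5 and 16.01, 14.4, 19.0, 17.3 and 16.7 FPKM in MI+Nav 1 to 5. The MI libraries spanned the treated ones on both sides, and the log2 fold change of Adam9 was 0.00 (95% interval −0.48 to 0.47, limma adjusted p 0.996). Adam10, which cleaves Notch and cadherins, averaged 9.94 ± 2.06 FPKM in MI and 9.83 ± 0.803 FPKM in MI+Nav (SD, n = 5 each), with a log2 fold change of 0.00 (95% interval −0.33 to 0.34, limma adjusted p 0.994). Adam10 measured 11.8, 12.1, 7.55, 8.17 and 10.1 FPKM in MI 1 to 5 and 10.7, 8.58, 10.3, 9.73 and 9.81 FPKM in MI+Nav 1 to 5, again with the treated libraries inside the MI range. Both intervals leave room for modest differences in either direction. Adam17, the sheddase of tumour necrosis factor and of ligands of the epidermal growth factor receptor, averaged 2.39 ± 0.451 and 1.97 ± 0.270 FPKM (SD, n = 5 each). Its log2 fold change was −0.22 (95% interval −0.53 to 0.10, limma adjusted p 0.542), and it overlaps Iah1.

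Adam15 was the detected member whose groups did not overlap. It encodes a membrane protease with an integrin-binding disintegrin domain that is made by endothelial and epithelial cells, among others. Adam15 (chr3:89338542-89349989, minus strand) measured 5.94, 6.34, 5.97, 6.42 and 5.07 FPKM in MI 1 to 5 and 4.15, 3.21, 3.79, 4.66 and 4.85 FPKM in MI+Nav 1 to 5. All 5 treated libraries lay below all 5 MI libraries, as they did for 345 of all tested genes (2.57%). MI 5 and MI+Nav 5 were the closest pair. Adam15 differed by a log2 fold change of −0.49 (SE 0.14, 95% interval −0.79 to −0.18), with an unadjusted limma p of 0.00406 and an adjusted p of 0.167. Over 23 settings of the analysis it ranged from −0.69 to −0.31, and the limma adjusted p from 0.0544 to 0.517. The values −0.69 and 0.0544 both come from the run without MI+Nav 1, 4 and 5, an alternative chosen after the data were seen. Set against Adam10 of the same library, the Adam15 level was 0.502 to 0.790 in MI and 0.367 to 0.494 in MI+Nav, a ratio chosen after the values were seen. Adam15 overlaps 4731419I09Rik on the opposite strand.

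Adam11, which lacks the catalytic site and does not act as a protease, measured 0.754, 0.631, 1.80, 1.10 and 0.818 FPKM in MI 1 to 5 and 0.407, 0.289, 0.376, 0.607 and 0.903 FPKM in MI+Nav 1 to 5. MI+Nav 5 reached into the MI range and the other 4 treated libraries were below it. The log2 fold change of Adam11 was −0.56 (SE 0.22, unadjusted limma p 0.021, adjusted p 0.305). It was −0.14 without the 4 libraries of highest mitochondrial share and −0.24 with array weights (unadjusted limma p 0.518 and 0.204). Leaving out MI 3 or MI+Nav 2 alone also brought it past an unadjusted limma p of 0.05, to −0.40 and −0.48.

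**Figure D3:**
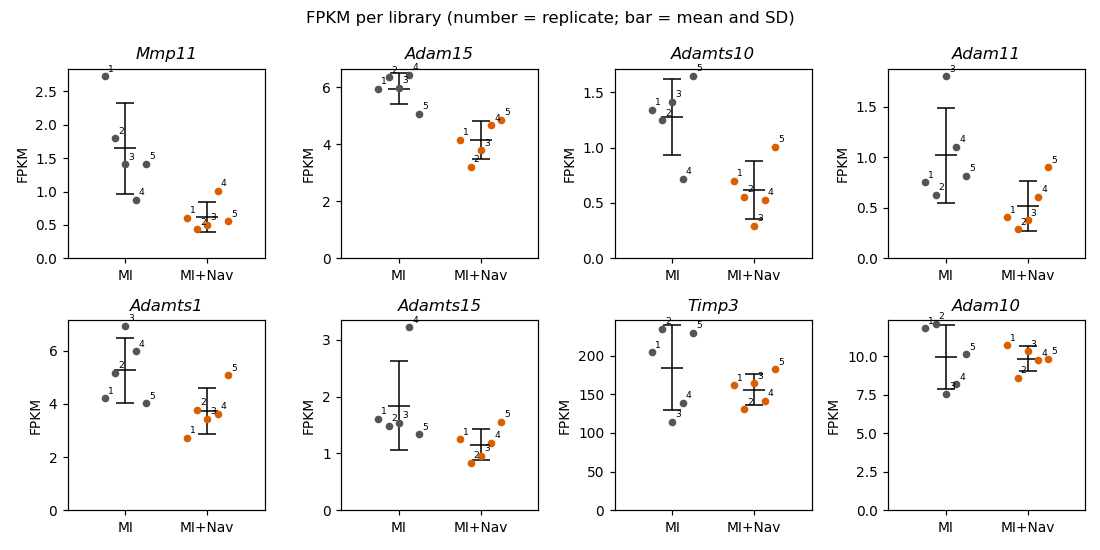
FPKM of 8 detected members in each library, with the replicate number beside each point and a bar for the mean and SD of 5 libraries, MI in grey and MI+Nav in orange; every axis starts at 0. The Adam15 groups do not overlap, 4 of 5 treated libraries lie below every MI library for Mmp11, Adamts10, Adam11, Adamts1 and Adamts15, and the groups overlap widely for Timp3 and Adam10.

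Of the detected ADAMTS genes, Adamts1 had the highest level. Its enzyme cleaves versican and aggrecan and binds vascular endothelial growth factor. Adamts1 (chr16:85793827-85803113, minus strand) measured 4.21, 5.18, 6.93, 5.98 and 4.03 FPKM in MI 1 to 5 and 2.72, 3.79, 3.44, 3.64 and 5.08 FPKM in MI+Nav 1 to 5. The libraries MI 3 and MI 4 were highest and MI+Nav 5 alone reached the MI range. The log2 fold change was −0.44 (SE 0.18, 95% interval −0.83 to −0.05, unadjusted limma p 0.0291, adjusted p 0.333). After median-of-ratios scaling it was −0.30 with an unadjusted limma p of 0.186, and without the 4 libraries of highest mitochondrial share it was −0.24 with an unadjusted limma p of 0.267. Its unadjusted limma p also passed 0.05 when MI 3, MI 4, MI+Nav 1 or MI+Nav 3 was left out, with log2 fold changes of −0.35, −0.40, −0.35 and −0.42.

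Adamts10, whose protein associates with fibrillin microfibrils, measured 1.34, 1.25, 1.42, 0.720 and 1.65 FPKM in MI 1 to 5 and 0.702, 0.555, 0.292, 0.528 and 1.01 FPKM in MI+Nav 1 to 5. MI 4 lay among the treated libraries, as for Mmp11, and the remaining MI libraries were above all of them. The group means were 1.28 ± 0.344 and 0.617 ± 0.263 FPKM (SD, n = 5 each). The log2 fold change was −0.68 (SE 0.20, 95% interval −1.10 to −0.25), with an unadjusted limma p of 0.00432 and an adjusted p of 0.171. Without MI 4, Adamts10 passed the adjusted threshold (log2 fold change −0.81, limma adjusted p 0.0405).

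Adamts15, a further protease of versican and aggrecan, measured 1.61, 1.49, 1.54, 3.22 and 1.34 FPKM in MI 1 to 5 and 1.25, 0.836, 0.956, 1.19 and 1.55 FPKM in MI+Nav 1 to 5. MI 4 stood far above the other MI libraries, and the treated libraries other than MI+Nav 5 were below the MI range. The log2 fold change was −0.46 (SE 0.20, unadjusted limma p 0.0368, adjusted p 0.362), and after median-of-ratios scaling it was −0.36 with an unadjusted limma p of 0.0985. Without MI 4 it was −0.28 (unadjusted limma p 0.101), and without the 4 libraries of highest mitochondrial share −0.12 (unadjusted limma p 0.456). Leaving out MI+Nav 2, 3 or 4 gave −0.39, −0.42 and −0.47, each with an unadjusted limma p above 0.05. Adamts6, the closest relative of Adamts10, measured 0.713, 0.340, 1.23, 1.02 and 0.366 FPKM in MI 1 to 5 and 0.602, 0.204, 0.278, 0.413 and 0.553 FPKM in MI+Nav 1 to 5. The MI libraries were split, with MI 3 and MI 4 highest (log2 fold change −0.40, SE 0.22, limma adjusted p 0.470), and without the 4 libraries of highest mitochondrial share the difference was 0.09. Adamts9, which cleaves versican and is needed for vascular and heart development in mice, measured 0.801, 0.874, 0.814, 0.694 and 0.855 FPKM in MI 1 to 5 and 0.778, 0.398, 0.446, 0.862 and 0.570 FPKM in MI+Nav 1 to 5. The MI libraries lay close together and the treated ones spread across and below them (log2 fold change −0.25, SE 0.15, limma adjusted p 0.5003).

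Summed over each family, the ADAMTS genes separated the groups on the FPKM as deposited, but not after median-of-ratios scaling (applied to the sums after seeing the data), where the sums were 9.11 to 15.4 in MI and 6.80 to 9.45 in MI+Nav. Their summed level as deposited was 10.8 to 14.3 FPKM in the MI libraries (median 12.1) and 6.00 to 10.2 FPKM in the MI+Nav libraries (median 7.20). The MMP sum was 3.54 to 7.80 FPKM (median 7.62) in MI and 1.75 to 4.53 FPKM (median 4.35) in MI+Nav, and only MI 4 fell into the range of the treated libraries. The ADAM sum, 28.9 to 46.9 FPKM in MI and 28.9 to 36.3 FPKM in MI+Nav, and the TIMP sum, 120 to 242 FPKM in MI and 134 to 190 FPKM in MI+Nav, overlapped. Adamts1, Adam9 and Timp3 had the highest means within the ADAMTS, ADAM and TIMP sums, and the MMP sum was led by Mmp11 and Mmp23. The sums are descriptions without a test.

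**Figure D4:**
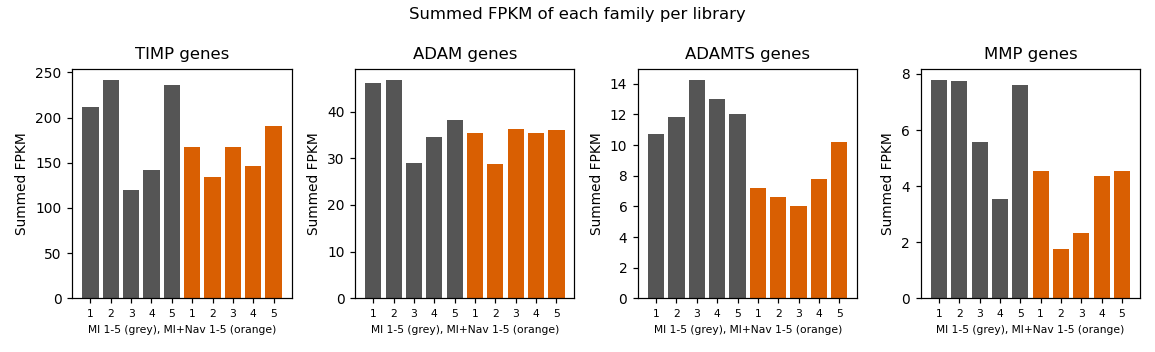
Summed FPKM as deposited of the TIMP, ADAM, ADAMTS and MMP genes in each library (bars start at 0; MI replicates 1 to 5 in grey, MI+Nav replicates 1 to 5 in orange). The ADAMTS bars of all MI libraries are at 10.8 FPKM or higher and those of all MI+Nav libraries at 10.2 FPKM or lower, while MI 4 has the lowest MMP bar of its group at 3.54 FPKM.

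The 48 members below detection were described without the main test. The mean was lower in MI+Nav for 35 of them and higher for 13, where 60.8% of all 16456 genes below detection had a lower mean in MI+Nav. In a limma fit without any filter, 11 of the 48 were lower and 1, Adamts17, was higher at an unadjusted p under 0.05, against 8.34% of all genes lower and 1.07% higher in the same fit. Among all genes below detection, 6% were lower at that limit. None of the 48 passed the adjusted threshold, and neither did any other gene in that fit. At these levels a library rests on few fragments, so differences are poorly resolved and their log2 fold changes are damped by the added 0.5.

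Adamts5, the aggrecanase that lies beside Adamts1 on chromosome 16, measured 0.787, 1.82, 1.06, 0.441 and 2.39 FPKM in MI 1 to 5 and 0.379, 0.371, 0.341, 0.466 and 0.418 FPKM in MI+Nav 1 to 5. It reached 0.5 FPKM in 4 libraries, all of the MI group, and MI 4 was the only MI library at the level of the treated ones. Mmp13, the main collagenase of the mouse, measured 0.699, 1.504, 0.582, 0.171 and 0.984 FPKM in MI 1 to 5 and 0.109, 0, 0.217, 0.164 and 0.0849 FPKM in MI+Nav 1 to 5. Again MI 4 alone overlapped the treated group, and the highest library, MI 2, held an estimated 75.7 fragments. Mmp2, the gelatinase of mesenchymal cells, measured 0.515, 0.580, 0.554, 0.174 and 0.721 FPKM in MI 1 to 5 and 0.216, 0.173, 0.266, 0.260 and 0.345 FPKM in MI+Nav 1 to 5. Here too MI 4 had the value of a treated library and the other MI libraries were higher. Mmp13 and Mmp2 were chosen for description after their values were seen.

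The groups did not overlap for Mmp28 and Adamts14, as for 218 of the 16456 genes below detection. Mmp28, epilysin, measured 0.326, 0.283, 0.300, 0.329 and 0.387 FPKM in MI 1 to 5 and 0.166, 0.0197, 0.127, 0.132 and 0.227 FPKM in MI+Nav 1 to 5. Adamts14, which removes the amino-terminal propeptide of fibrillar procollagens, measured 0.216, 0.197, 0.192, 0.101 and 0.370 FPKM in MI 1 to 5 and 0.0951, 0.0450, 0.0191, 0.0901 and 0.0465 FPKM in MI+Nav 1 to 5. Unlike the preceding genes, Mmp28 was not low in MI 4. The estimated fragments per library were 1.6 to 27.0 for Mmp28 and 2.0 to 34.6 for Adamts14.

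The enzymes that neutrophils carry in their granules were at the floor of the measurement. Mmp9, gelatinase B, measured 0, 0.1497, 0.117, 0.0153 and 0.169 FPKM in MI 1 to 5 and 0.0981, 0.0692, 0, 0.0796 and 0 FPKM in MI+Nav 1 to 5, at most 10.7 estimated fragments. Both groups held libraries listed at 0 and their values overlapped. Mmp8, the neutrophil collagenase, and Mmp25, a membrane-type MMP of neutrophils, stayed at or below 0.119 and 0.0807 FPKM in every library. The neutrophil marker list summed to 1.93 to 7.90 FPKM in MI and 2.06 to 4.15 FPKM in MI+Nav, led by S100a9 and S100a8. The granule gene Ngp was above 0 in 1 library, and Cxcr2, the target of navarixin, stayed at or below 0.137 FPKM.

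**Figure D5:**
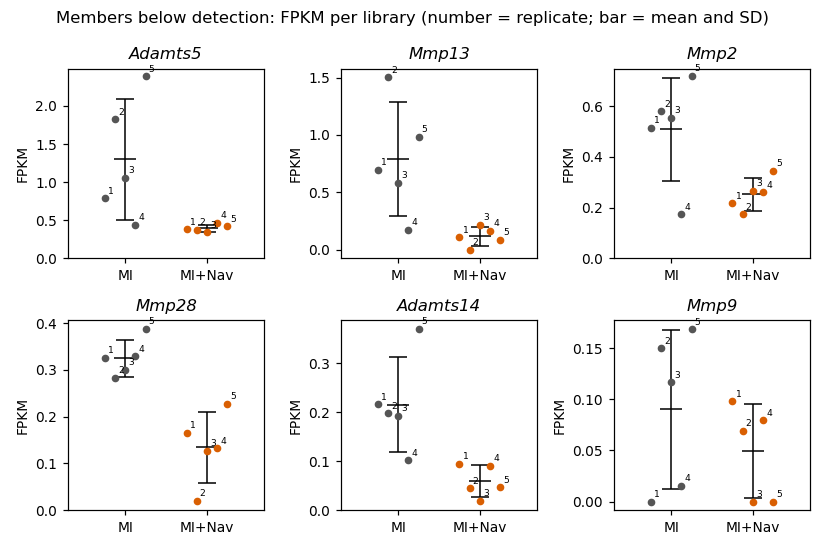
FPKM of 6 members below detection in each library, with the replicate number beside each point and a bar for the mean and SD of 5 libraries (MI in grey, MI+Nav in orange). For Adamts5, Mmp13 and Mmp2 all MI libraries except MI 4 lie above every treated library, the Mmp28 and Adamts14 groups do not overlap, and the Mmp9 values overlap down to 0.

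Of the MMP genes clustered on chromosome 9 (Mmp7, Mmp20, Mmp27, Mmp8, Mmp10, Mmp3, Mmp12 and Mmp13), none was detected. Their promoters and those of the detected members were compared in the 250 bases before the RefSeq start (GRCm38.p6), which was given for 40 of 64 members, 11 of them detected. The AP-1 motif TGAGTCA, searched on both strands, stood in 6 of 40 members (15.0%), against 5.16% of 27025 genes. All 6 were below detection, namely Mmp3, Mmp7, Mmp10, Mmp12 and Mmp13 of the cluster and Adam19, and 0 of 11 detected members held it. Of the 27025 genes, 3.94% of those detected here held it and 5.83% of the rest. The rest include genes that are absent from the deposited table. The window around the motif, in capitals, is shown for 3 cluster genes as it reads on the coding strand, where Mmp13 carries the motif in reverse complement.
Mmp13: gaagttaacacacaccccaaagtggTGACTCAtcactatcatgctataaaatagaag
Mmp3: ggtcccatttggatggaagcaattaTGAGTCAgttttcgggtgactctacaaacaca
Mmp10: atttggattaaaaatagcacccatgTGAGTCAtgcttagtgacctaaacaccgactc
The windows are chr9:7272454-7272510, chr9:7445751-7445807 and chr9:7502254-7502310, all on the plus strand, and in each a TATAAA motif lies in the same 250 bases. The motif ends 29 bases before the start of Mmp13, 40 bases before that of Mmp3 and 57 bases before that of Mmp10.

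The GC box GGGCGG, searched on both strands, was spread in the opposite way. It stood in 10 of 11 detected members (90.9%) and in 10 of 29 members below detection (34.5%). Of the same 27025 genes, 63.3% of those detected here held it and 20.1% of the rest. TATAAA stood in 1 of 11 detected members, Adamts1, and in 6 of 29 below detection (20.7%). It stood in 8.07% of all detected genes and in 17.8% of the rest. The GC box, in capitals, is shown for 3 detected proteases whose window lies outside the annotated gene.
Adam15: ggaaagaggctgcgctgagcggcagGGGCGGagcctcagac
Adam17: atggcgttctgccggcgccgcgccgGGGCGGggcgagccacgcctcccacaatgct
Mmp14: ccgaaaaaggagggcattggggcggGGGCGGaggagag
The windows of Adam15, Adam17 and Mmp14 are chr3:89350029-89350069 and chr12:21373677-21373732 on the minus strand and chr14:54431560-54431597 on the plus strand. The matches describe the letters only and say nothing about binding of a factor in these libraries.

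The genes that work with the metalloproteinases were taken from lists chosen with earlier results of these data known. Of 14 tested partners and activators, 2 were lower and 0 higher at an unadjusted limma p under 0.05, with a median log2 fold change of −0.28, and none passed the adjusted threshold. The smallest p belonged to Reck, a membrane-anchored inhibitor of MMPs, which measured 1.17, 1.22, 0.906, 0.817 and 0.747 FPKM in MI 1 to 5 and 0.674, 0.652, 0.732, 0.656 and 0.626 FPKM in MI+Nav 1 to 5. All treated Reck values lay below all MI values (log2 fold change −0.32, SE 0.14, limma adjusted p 0.363). Rhbdf1, which carries ADAM17 to the cell surface, averaged 4.99 and 3.60 FPKM with overlapping groups (log2 fold change −0.51, SE 0.24, limma adjusted p 0.392). Of 7 tested genes of plasminogen activation, which feeds into the activation of pro-MMPs, 1 was lower at the unadjusted limit, Plat, the tissue-type activator (3.56 and 2.39 FPKM, log2 fold change −0.60, limma adjusted p 0.369). Serpine2, an inhibitor of such proteases, followed at −0.27 (limma adjusted p 0.5003), and the list had a median of −0.22. Of all tested genes, 11.5% were lower at the unadjusted limit, and their median log2 fold change was −0.12. The counts of both lists are thus close to the share of all genes.

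Of 7 tested relatives of the metalloproteinases, 1 was lower at an unadjusted limma p under 0.05. This was Adamtsl2, an ADAMTS-like protein without a catalytic domain that binds fibrillin, with group means of 1.63 ± 0.601 and 0.815 ± 0.249 FPKM (SD, n = 5 each). Its log2 fold change of −0.67 (SE 0.20, limma adjusted p 0.183) was close in size to that of Adamts10, which also binds fibrillin, and the difference between them was not tested. Ace, the angiotensin-converting enzyme, averaged 20.4 and 15.6 FPKM (log2 fold change −0.39, limma adjusted p 0.473). The list had a median of −0.20, against −0.12 for all tested genes. Its count is close to the 11.5% of all tested genes that were lower at the unadjusted limit.

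Substrates were also read. Of 21 tested ligands and receptors shed by ADAMs, 5 were lower and 0 higher at an unadjusted limma p under 0.05, with a median log2 fold change of −0.17. The Notch ligand Dll4 and the receptor Notch4, both of endothelial cells, had the smallest p (log2 fold changes −0.82 and −0.45, limma adjusted p 0.168 and 0.178). Of 16 tested matrix substrates, 10 were lower and 0 higher at that limit and 0 passed the adjusted threshold, with a median of −0.61. Col4a2 and Col4a1 encode 2 of the chains of basement membrane collagen. They measured 11.4 ± 1.40 and 15.8 ± 1.295 FPKM in MI (SD, n = 5 each). In MI+Nav they measured 6.69 ± 1.18 and 10.1 ± 1.67 FPKM (SD, n = 5 each). Neither gene overlapped between the groups, with log2 fold changes of −0.73 and −0.63 (limma adjusted p 0.0607 and 0.0834). Beside these counts stand 11.5% of all tested genes and 6 of 16 members that were lower at this limit.

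Markers of several cell types moved beside these genes. Of all 13412 tested genes, 11.5% were lower in MI+Nav at an unadjusted limma p under 0.05 and 167 genes were higher. All 13 endothelial markers were lower at that limit, 2 of them past the adjusted threshold. Their summed level was 44.3 to 116 FPKM in MI and 22.0 to 54.9 FPKM in MI+Nav. The macrophage and monocyte list summed to 29.4 to 87.4 and 15.8 to 36.0 FPKM, with 7 of 7 tested genes lower at that limit. The fibroblast list summed to 8.11 to 29.2 and 4.61 to 17.7 FPKM, with 5 of 10 tested genes lower. In the endothelial, macrophage and fibroblast lists MI 4 was the lowest MI library, as it was for Mmp11, Adamts10, Adamts5, Mmp13 and Mmp2. It was not the lowest for Adam15, Adam11, Adamts1 or Adamts15. Of 7 podocyte markers, 5 were lower at that limit, and the list summed to 22.8 to 35.2 and 9.41 to 25.7 FPKM. The list of pericyte, mesangium and smooth muscle genes went both ways, with 4 of 10 tested genes lower and 3 higher. Among the latter were Acta2 (5.49 and 16.7 FPKM) and Myh11 (0.678 and 2.37 FPKM), contractile genes of smooth muscle. Neither passed the adjusted threshold (limma adjusted p 0.161 and 0.0703). The 2 genes of this list that did pass, Pdgfrb and Itga8, were both lower (log2 fold changes −1.11 and −0.78, limma adjusted p 0.0317 and 0.0445). No marker of these 5 lists was at 0 in all libraries. Their part in the member values was not tested, and in bulk libraries fewer cells of a type and less RNA per cell cannot be told apart. The tubule lists moved less. Of 12 proximal tubule, 5 loop of Henle and 4 injured tubule markers tested, 0 were past the unadjusted limit in either direction. Of 8 markers of the distal tubule and collecting duct, 2 were lower and 1 was higher. Krt18 was 34.7, 55.6 and 53.0 FPKM in MI+Nav 1, 4 and 5 against 7.20 to 13.6 FPKM in the remaining libraries. The list of urothelium and simple epithelium genes, which holds Krt18, summed to 238, 267 and 264 FPKM in those 3 libraries. It summed to 59.8 to 100 FPKM in the rest. Of its 9 tested genes, 0 had a log2 fold change below 0 and 0 were past the unadjusted limit. Without those 3 libraries, an alternative chosen after the data were seen, the median log2 fold change was −0.54 for the members and −0.32 for all tested genes. There 8 members were lower at an unadjusted limma p under 0.05, and the share of all tested genes at that limit was not counted. In that run 165 of all tested genes and 0 members passed the adjusted threshold. It kept MI+Nav 2 and MI+Nav 3, the treated libraries of highest mitochondrial share, so that share and the Krt18 difference cannot be told apart there.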

How the data were processed

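The authors deposited FPKM for 29868 genes in 10 libraries, 1 column per library, all of which were used. Per the labels and methods, libraries of poly(A) RNA that keep the strand were read from both ends. In their processing notes the submitters name cutadapt 1.9, HISAT2 2.0.4, StringTie 1.3.4d and the build mm10, and also DESeq2 and edgeR, which the authors used for differential expression and which need counts, so neither was run here. No source used here names the annotation release. Of the gene IDs, 29770 are in GENCODE M21 (all 64 members). Positions of genes are as deposited (mm10) and those of zinc sites come from GENCODE M21. FPKM are relative to each library's mapped fragments, and mitochondrial RNA takes up part of these. The median-of-ratios factors were lowest in the 4 libraries of highest mitochondrial share (0.742 to 0.981). Not all other genes were lower there, since the proximal tubule markers summed highest in MI 4 and MI 3 (58680 and 54960 FPKM). Fragments were estimated from the step between low FPKM values scaled by exon length.

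The 13412 genes that reached 0.5 FPKM in 5 or more libraries were compared between the groups on log2(FPKM + 0.5), using limma 3.58.1 (R 4.3.3; robust eBayes with a mean-variance trend, two-sided, no blocking term, Benjamini-Hochberg adjustment over all tested genes). Fold changes on this scale understate changes of low genes. Genes passed at an adjusted p under 0.05. The members, role classes, gene lists and marker lists were chosen with earlier results of these data known. Values of every library were given for members without overlap between the groups, the 8 of smallest p, the highest detected member of each role class and all TIMPs. Of each other list, the 2 genes of smallest p were named. Replicate numbers in the labels did not pair libraries: correlations of same-numbered deviations were −0.223 to 0.046, and no library correlated best with its own number. Alternatives were other pseudocounts, filters, scalings and variance models, array weights, a replicate block, the mitochondrial share as covariate, and libraries left out. The fit was also run on simulated data with independent noise for each gene. That simulation held no shifts of whole libraries, such as those in mitochondrial share, so it cannot show how the fit behaves under them. Sequences were read with Python 3.11.15 from GENCODE M21 and from RefSeq promoters (GRCm38.p6). Figures were drawn with matplotlib 3.10.9.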

Additional observations from a re-analysis of the deposited data

Results flagged for a closer look

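Of 36 groups of 5 libraries examined for the named members, 1 held a library far from the others. Adamts15 was 3.22 FPKM in MI 4, and the nearest MI library was at 1.61 FPKM, a gap of 0.854 of the range of the group. Chance alone sets apart about 1 in 20 such groups.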

How the results depend on the processing

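The number of members past an adjusted limma p under 0.05 was 0 as reported, 1 (Mmp11) with array weights, and 0 to 2 when 1 library was left out, with 2 (Mmp11 and Adamts10) without MI 4. The number of detected members was 16 as reported, 34 at 0.1 FPKM in 5 libraries and 8 at 0.5 FPKM in all 10. The median log2 fold change of the members was judged against the SD within groups of the members' median log2 level per library, centred per gene. It moved by more than that SD only without MI+Nav 1, 4 and 5, to −0.54, an alternative chosen after the data were seen. Shifts to −0.45 with a pseudocount of 0.1 and to −0.447 with TPM scaling were smaller than that SD. The median ranged from −0.39 to −0.22 with 1 library left out. With the replicate block it was −0.31, 6 members were lower at an unadjusted p under 0.05 and 6 of all tested genes passed the adjusted threshold. The numbers do not pair the libraries. Of all tested genes, 49 passed as reported, 0 without a filter, 378 with array weights, 91 with the mitochondrial share as covariate, 302 without the 4 libraries of highest mitochondrial share, 165 without MI+Nav 1, 4 and 5, and 1 to 292 with 1 library left out, the highest without MI 4. The cause of these shifts was not tested. Leaving out the 4 libraries of highest mitochondrial share also kept only MI+Nav 1, 4 and 5 as treated libraries, so mitochondrial share and the Krt18 difference cannot be told apart there.

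The sign changed for Adam9 and Adam10, which lie near 0, and for Adamts6, which was −0.40 as reported. Adam9 was at 0.15 after median-of-ratios scaling and 0.078 with the mitochondrial covariate, and ranged from −0.217 to 0.122 with 1 library left out. Adam10 was at −0.091 with TPM scaling, −0.034 with scaling without mitochondrial genes, −0.12 with array weights, −0.16 without the 4 libraries of highest mitochondrial share, −0.053 without MI+Nav 1, 4 and 5, and ranged from −0.084 to 0.077 with 1 library left out. Adamts6 was at 0.088 without the 4 libraries of highest mitochondrial share. The other detected members stayed below 0 under every alternative in which they were fitted, but their sizes moved, to −0.04 for Mmp23, −0.14 for Adam11, −0.12 for Adamts15, −0.24 for Adamts1 and −0.47 for Timp3 without the 4 libraries of highest mitochondrial share. At a few fragments per library, as for Timp1, Timp4 and Mmp9, depth limits what can be seen.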
